A study of Mus musculus with 59 samples.

Results

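The genes described here are 34 enzymes, regulators and carriers of sterol and fatty acid synthesis, chosen by name and found through the probes whose accession maps to them, out of 37163 genes or transcripts on the array. All 34 had a probe. They comprise 7 genes of the early, mevalonate part of sterol synthesis (Acat2, Hmgcs1, Mvk, Pmvk, Mvd, Idi1, Fdps), 11 genes of its late part from squalene to cholesterol (Fdft1, Sqle, Lss, Cyp51, Tm7sf2, Msmo1, Nsdhl, Hsd17b7, Ebp, Sc5d, Dhcr7), 5 regulators and carriers (Insig1, Srebf2, Srebf1, Stard4, Thrsp), 5 genes that supply fatty acid carbon and reducing power (Acly, Acaca, Acacb, Fasn, Me1) and 6 elongases and desaturases (Elovl5, Elovl6, Scd1, Scd2, Fads1, Fads2).

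Cells build cholesterol from acetyl-CoA through mevalonate, isoprenoids, squalene and lanosterol, and build fatty acids from malonyl-CoA. Both routes are controlled at the transcript level by the sterol regulatory element binding proteins, SREBP2 (gene Srebf2) mainly for the sterol genes and SREBP1 (gene Srebf1) mainly for the fatty acid genes. These proteins are held in the endoplasmic reticulum by the Insig proteins when sterols are plentiful. Liver is the main site of both routes in the body, lung uses fatty acids to make surfactant, and the stratified epithelium of the forestomach uses sterols and long-chain fatty acids in its barrier.

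The tissues profiled were the lung, the liver and the forestomach of male Muta™Mouse, adults of about 16 weeks from a transgenic strain with a bacterial reporter for mutation assays. The mice received benzo(b)fluoranthene (BbF), a polycyclic aromatic hydrocarbon, in olive oil by oral gavage for 28 days at 25 (low), 50 (medium) or 100 (high) mg/kg-bw/day, or olive oil alone (vehicle, 0 mg/kg-bw/day), with collection 72 hours later. Every group held 5 mice per tissue except low-dose lung with 4, which makes 59 arrays from 20 mice. By the numbers in the labels, each mouse was an animal of its own. Each gave lung, liver and forestomach, except low-dose mouse 7, which has no lung array. The labels disagree on the compound: benz(a)anthracene stands in the exposure field and in the design description, and BbF in the sample titles and the treatment protocol, which are followed here.

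Each value is a log2 ratio of Cy5-labelled tissue RNA to universal mouse reference RNA labelled with Cy3, pooled from 11 mouse cell lines, after loess normalization within the array. A value of 0 thus means the level of that pool, and levels of different genes are not comparable. A gene counted as a differentially expressed gene (DEG) when limma's moderated test gave 0.05 or less as the p adjusted by Benjamini-Hochberg over all probes and the change was 1.5-fold or more. The number of arrays limits the precision. The tissue labels were borne out by their markers, with Sftpc at 6.84 or more on every lung array, Apoh at 7.91 or more on every liver array and Krt13 at 4.76 or more on every forestomach array. Of the 34 genes, 23 were well above background on every array.

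Several arrays stood apart. In liver, 8 arrays shared a slide (the third) on which 10.7 to 12.9% of the probes were well above background, compared with 37.1 to 46.2% on the other liver slides. Dose effects in liver were therefore fitted with the slide as a term. The comparison of vehicle tissues had no such term, and vehicle mouse 5 lay on the third liver slide. In lung, medium-dose mouse 13 had the most probes above background (68.8%), and low-dose mouse 6 carried squamous markers (Krt13 4.17 and Krt4 5.73) against medians of -1.78 and 0.07 over the lung arrays. Medium-dose mice 12 and 15 had the highest hepatocyte marker values in forestomach (Apoh 6.69 and 3.43, median of the 20 arrays 0.50). Adipocyte markers varied from mouse to mouse in lung and forestomach and are given below beside the genes they moved with.

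In vehicle mice, liver had the highest level of 28 of the 34 genes, forestomach of 5 and lung of 1, and lung had the lowest level of 26. Between lung and liver, 31 genes were DEGs, 30 of them lower in lung and 1 higher, with 29% of all genes called in this comparison (11.7% lower and 17.3% higher in lung). The median difference of lung minus liver was -2.92 over the 18 sterol genes and -1.52 over the 11 fatty acid genes, against -0.01 over all genes. In bulk tissue, fewer cells of a type and less RNA per cell cannot be told apart, here and in every comparison that follows.

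The sterol genes with the widest gaps between lung and liver were Tm7sf2, Sc5d, Dhcr7 and Acat2. Tm7sf2, a sterol reductase, was at 4.32 to 6.00 in liver, 3.05 to 3.98 in forestomach and -0.54 to 0.51 in lung, with no overlap between tissues. Lung was lower than liver by -5.53 ± 0.29 (SE, adjusted p = 3.2e-10) and lower than forestomach by -3.49 ± 0.29 (adjusted p = 1.1e-07). Sc5d, a desaturase of the sterol ring, followed the same order, with means of 4.43 ± 0.43 (SD, n = 5) in liver, 2.59 ± 0.26 in forestomach and 0.10 ± 0.31 in lung. For Dhcr7, which makes the last step to cholesterol in one branch, and Acat2, the thiolase that opens the mevalonate route, lung was lower than liver by -3.59 ± 0.29 and -3.42 ± 0.29 (both DEGs). Hsd17b7, a ketoreductase of sterol demethylation, was lower in lung than in forestomach by -2.92 ± 0.34 (adjusted p = 4.9e-06), whereas liver and forestomach did not differ detectably for it (0.14, 95% interval -0.59 to 0.86). Over all doses, it was well above background in 16 of 20 livers.

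Desaturases and elongases divided the tissues in other ways. Scd2, a stearoyl-CoA desaturase, was the only one of the 34 genes with its highest level in lung: the vehicle mice lay at 0.70 to 1.14 in lung, -1.79 to -1.02 in forestomach and -5.35 to -2.89 in liver. Lung exceeded liver by 5.61 ± 0.35 (adjusted p = 2.4e-09) and forestomach by 2.37 ± 0.35 (adjusted p = 5.6e-05). Over all doses, Scd2 was well above background in 14 of 20 livers. Its paralog Scd1, the main hepatic stearoyl-CoA desaturase, was highest in liver at 4.71 to 6.25, followed by lung at 2.83 to 4.19 and by forestomach at -0.45 to 2.92. Liver exceeded forestomach by 4.71 ± 0.58 for Scd1 (adjusted p = 8.1e-06) and lung did so by 2.61 ± 0.58 (adjusted p = 0.0022). The array measures both paralogs with probes of their own, but cross-hybridization between near-identical stretches was not tested.

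Elovl6, which extends palmitate, was highest in forestomach, where the 5 vehicle mice lay at 3.12 to 4.04, compared with 0.86 to 2.53 in liver and -2.04 to -0.76 in lung. Lung was lower than forestomach by -5.04 ± 0.31 (adjusted p = 3.1e-09) and liver was lower by -1.69 ± 0.31 (adjusted p = 0.00044). Fads1 and Elovl5, enzymes of polyunsaturated fatty acid synthesis, were instead lowest in forestomach. Fads1, the delta-5 desaturase, was at -2.39 to -2.05 there, -0.94 to -0.71 in lung and 0.71 to 1.39 in liver, so that liver exceeded forestomach by 3.30 ± 0.11 (adjusted p = 9.3e-13) and lung did so by 1.41 ± 0.11 (adjusted p = 4e-08). Elovl5, an elongase of polyunsaturated fatty acids, exceeded forestomach by 3.50 ± 0.15 in liver and 1.98 ± 0.15 in lung (both DEGs). For Fads2, the delta-6 desaturase, lung minus forestomach was -0.09 with an interval of -0.86 to 0.68. Over all doses, its probe was well above background in 10 forestomachs, compared with 20 for Fads1 and 20 for Elovl5. With so few forestomachs above background and so wide an interval, whether Fads2 shared the place of Fads1 and Elovl5 cannot be decided.

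Between lung and forestomach, 23 of the 34 genes were DEGs (22.8% of all genes), 19 lower and 4 higher in lung, the latter being Scd1, Scd2, Elovl5 and Fads1. Between liver and forestomach, 29 were DEGs (24.4% of all genes), 26 higher and 3 lower in liver. The 3 lower ones were Scd2, Elovl6 and Srebf2, the last by -0.84 ± 0.15 (adjusted p = 0.00041). Me1, malic enzyme, was lower in liver than in forestomach by -0.55 ± 0.14 (adjusted p = 0.0056), short of 1.5-fold. Thrsp, a nuclear protein of lipogenic cells, exceeded forestomach in liver by 3.27 ± 0.96 (adjusted p = 0.015), a call that was lost without vehicle mouse 1 or 2 or 4. Centring each array on its median in place of loess gave 18, 5 and 9 DEGs among the 34 genes in the lung-liver, lung-forestomach and liver-forestomach comparisons, with 14.9%, 11.1% and 12.0% of all genes called.

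**Figure D1:**
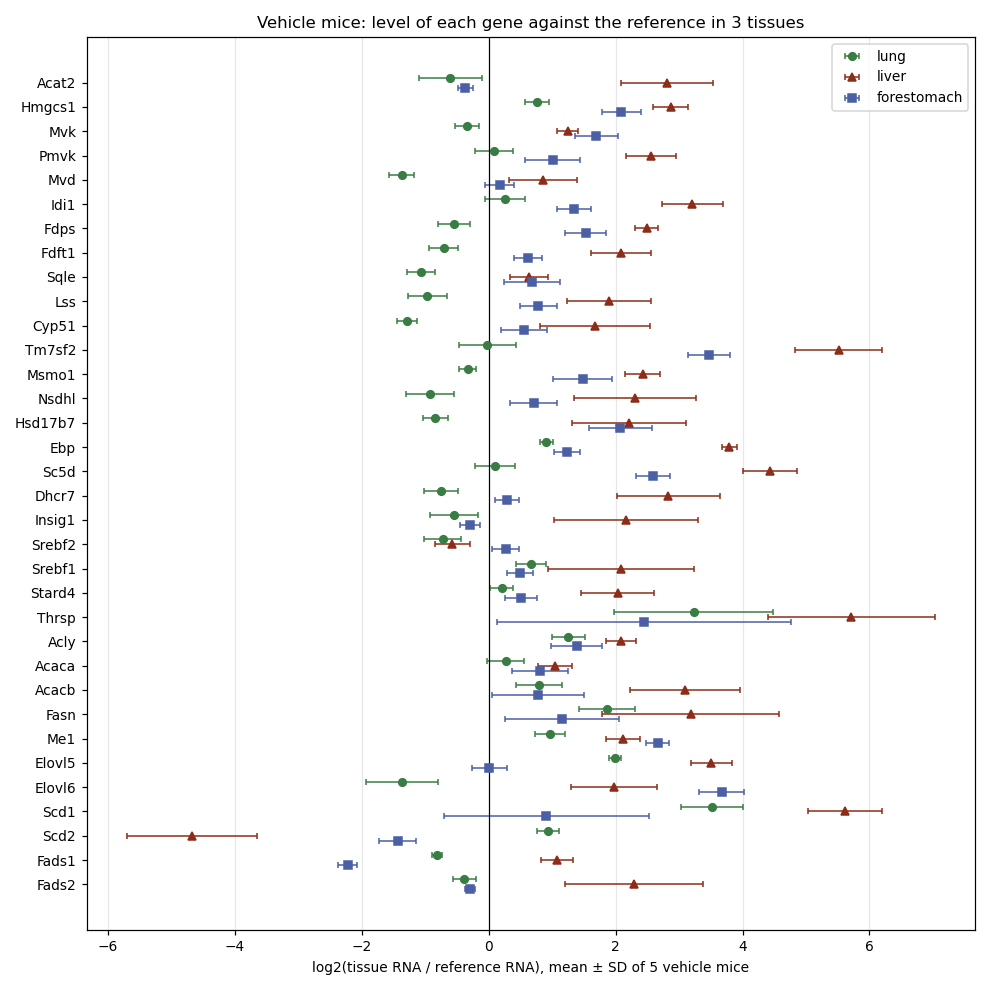
Level of each of the 34 genes in vehicle mice as log2 of tissue over reference RNA (x axis), with 1 row per gene, a point for the mean of 5 mice in each tissue and a bar for the SD. Liver lies to the right of lung for every gene except Scd2, and forestomach leads for 5 genes including Elovl6 and Me1.

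In lung, 2 of the 34 genes were DEGs at the high dose, both downregulated, 1 at the medium dose and 0 at the low dose. DEGs made up 1.76% of all genes at the high dose (0.503% of all genes were downregulated DEGs), 0.584% at the medium dose and 0.433% at the low dose. The 2 genes were Sqle, squalene epoxidase, which commits squalene to sterols, and Lss, lanosterol synthase, which acts directly after it. These calls hold after loess: centring each array on its median called neither, and called Acacb and Me1 as upregulated in their place (0 upregulated and 2 downregulated members after loess, 2 and 0 after median centring). With that centring 3114 of all 37163 genes were called at the high dose in lung, so the 2 members are no excess. At the low dose, 8 members had an unadjusted p under 0.05, all lower (4.15% of all genes were lower at that level).

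Sqle in lung was at -1.22, -0.89, -0.78, -1.23 and -1.20 in the vehicle mice. It was at -1.06, -1.40, -1.79 and -1.66 at the low dose, at -1.59, -1.84, -1.29, -1.75 and -1.86 at the medium dose, and at -1.81, -1.97, -1.56, -1.78 and -1.80 at the high dose. All medium-dose and all high-dose mice lay below every vehicle mouse, and of the low-dose mice 1 lay within the vehicle range. The low-dose lungs included that of mouse 6 with squamous markers, whose part in the Sqle values was not tested. The change against vehicle was -0.41 ± 0.14 (SE, adjusted p = 0.29) at the low, -0.60 ± 0.13 (adjusted p = 0.024) at the medium and -0.72 ± 0.13 (adjusted p = 0.0022) at the high dose. The trend over dose was a DEG as well (-0.67 ± 0.14 from vehicle to the high dose, adjusted p = 0.005), the only one of the 34 against 1.48% of all genes. The high-dose call held when any 1 mouse was left out (range -0.77 to -0.65), whereas the medium-dose call was lost without vehicle mouse 2 or 3 or medium-dose mouse 12, 14 or 15 (range -0.69 to -0.53).

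Lss in lung was at -1.24, -0.48, -0.84, -1.11 and -1.16 in vehicle mice, at -1.05, -1.25, -1.30 and -1.51 at the low dose, at -1.42, -1.55, -1.14, -1.79 and -1.50 at the medium dose, and at -1.87, -1.65, -1.32, -1.41 and -1.60 at the high dose. The high-dose mice all lay below the vehicle mice, while 1 medium-dose mouse overlapped with them. Its change of -0.61 ± 0.14 at the high dose (adjusted p = 0.011) was close to the 1.5-fold threshold. It fell short of that fold with the slide as a term (-0.57, adjusted p = 0.015) and without vehicle mouse 2 or 3 or high-dose mouse 16.

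With no threshold on the fold, 6 of the 34 genes had an adjusted p of 0.05 or less at the high dose in lung, all downregulated (7.48% of all genes passed, 2.93% downregulated). Besides Sqle and Lss these were Hmgcs1, the cytosolic HMG-CoA synthase, Msmo1 and Cyp51, which remove methyl groups from lanosterol, and Pmvk, phosphomevalonate kinase. Hmgcs1 was at 0.86, 0.71, 0.96, 0.46 and 0.79 in vehicle mice and at 0.23, 0.09, 0.26, 0.27 and 0.26 at the high dose, without overlap, and fell by 0.54 ± 0.09 (adjusted p = 0.0014), the smallest unadjusted p of the 34 genes. Msmo1 lay between -0.50 and -0.16 in vehicle mice and between -0.99 and -0.53 at the high dose, again without overlap, and fell by 0.48 ± 0.11 (adjusted p = 0.012). Pmvk fell by 0.43 ± 0.10 (adjusted p = 0.015), with 4 of 5 high-dose mice below all vehicle mice, and its 2 probes changed by -0.43 and -0.39. Cyp51 fell by 0.34 ± 0.09 (adjusted p = 0.028). At the medium dose 5 genes passed without the fold threshold (2.35% of all genes), namely Hmgcs1, Sqle, Acly, Pmvk and Cyp51.

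**Figure D2:**
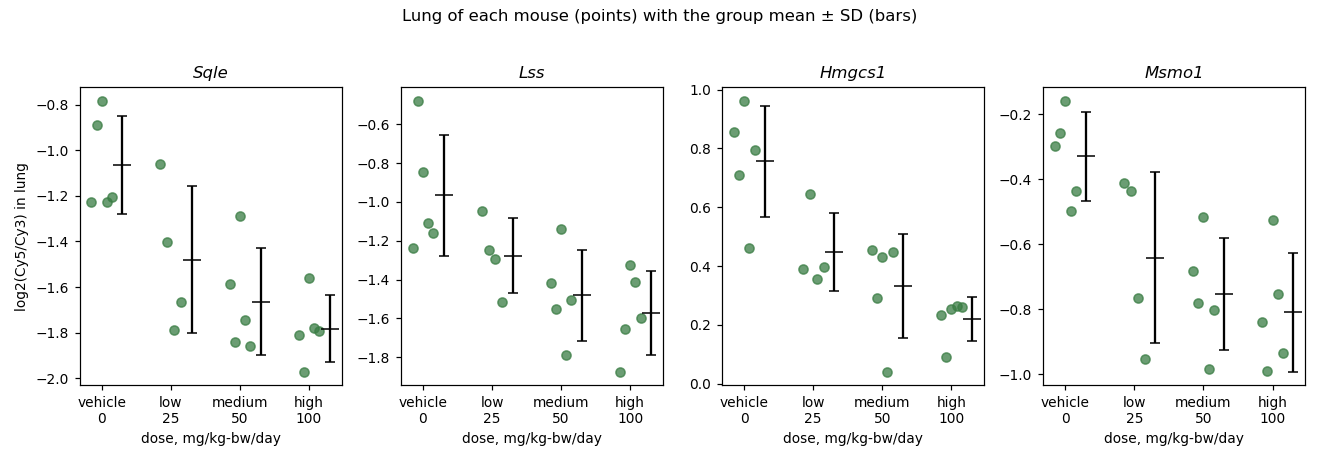
Level of Sqle, Lss, Hmgcs1 and Msmo1 in the lung of each mouse (points, log2 of tissue over reference RNA) by dose of BbF in mg/kg-bw/day, with the group mean and SD (bars). For each gene the 5 high-dose mice lie below the 5 vehicle mice, and the means of the low and medium doses lie between theirs.

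Across the whole set, 26 of the 34 genes were lower in high-dose than in vehicle lung (50.9% of all genes were lower), with a median change of -0.24 against 0.00 for all genes. Of the sterol genes, 15 of 18 were lower with a median of -0.32. In the early part Mvk was the exception (0.09), and in the late part Tm7sf2 (0.07) and Dhcr7 (0.01). The mean of the sterol genes per lung overlapped between the groups, at -0.58 to -0.24 in vehicle and -0.89 to -0.56 in high-dose mice. Of the 19 lungs, those of vehicle mice 2 and 3 were the highest for 7 and 5 of the 18 sterol genes. Those of high-dose mice 16 and 17 were the lowest for 5 and 6. For 4 genes (Hmgcs1, Sqle, Lss, Msmo1) all high-dose mice were below all vehicle mice, which held for 3.01% of all genes. At an unadjusted p under 0.05, 14 of the 34 genes were lower and 1 was higher, against 9.88% and 11.1% of all genes. The fatty acid genes had a median of -0.05, 7 of 11 being lower, which ranged from -0.20 to 0.00 when 1 mouse was left out. At the low and medium doses their medians were -0.16 and -0.19, close to those of the sterol genes (-0.17 and -0.24), and the difference between the lists was not tested. The one higher gene was Me1, which makes NADPH from malate, at 0.60 to 1.24 in vehicle and 1.15 to 1.53 in high-dose mice (0.33 ± 0.12, adjusted p = 0.12), and its 3 probes were higher by 0.27 to 0.41, the second of them with an adjusted p of 0.02. Acly, Fdft1 and Tm7sf2 each had 2 probes that differed in direction at the high dose in lung.

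The direction of these pulmonary changes depended on the normalization. Centring each array on its median in place of loess gave 0.00 for Hmgcs1, 0.06 for Msmo1 and 0.08 for Pmvk at the high dose, and Sqle and Lss stayed lower (-0.18 and -0.24) without passing the test (adjusted p = 0.63 and 0.43). With that centring the 34 genes had a median of 0.19 and 7 were lower. The 7072 genes as bright as the middle of the set (mean log2 intensity 8.67 to 11.6) shifted together under it, by a median of 0.44 at the high dose in lung, compared with 0.01 after loess. Loess removes differences that go with brightness within each array, so the 0.01 follows from the method. This contrast cannot decide which normalization gives the right direction. Under the processed log2 ratios of the authors, Sqle (-0.69) and Lss (-0.66) were both DEGs at the high dose, and 28 of the 34 genes were lower. The study used LOWESS, and in lung these ratios correlated at r of 0.995 to 0.999 with the values used here. They are thus no independent check of the direction.

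Slides and adipocyte content were set beside the lung result. Within the 3 lung slides, each with 1 or 2 vehicle and 1 or 2 high-dose mice, the high-dose difference was -0.58, -0.83 and -0.55 for Sqle, -0.35, -0.91 and -0.35 for Lss, -0.53, -0.62 and -0.46 for Hmgcs1 and -0.41, -0.64 and -0.20 for Msmo1. The mean log2 ratio of the 6 adipocyte markers (Adipoq, Plin1, Cidec, Lep, Retn, Cfd) ranged from 0.70 to 3.50 in vehicle lungs and from 0.77 to 4.19 in high-dose lungs, and all 6 markers had lower means at the high dose, with a median change of -0.41. Lep, a defining marker, was at background level on every array. With this mean as a covariate, a choice made after the data were seen, Sqle (-0.71, adjusted p = 0.0033) and Lss (-0.61, adjusted p = 0.014) were still DEGs at the high dose, while Sqle lost its call at the medium dose (-0.58, adjusted p = 0.064). The 6 alveolar type II markers, from the surfactant-making cells of lung, had a median change of 0.05.

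The adipocyte markers moved most closely with Thrsp in lung. Over 19 mice Thrsp correlated with their mean at Pearson's r = 0.91 and Spearman's rho = 0.89 (permutation test, p = 1e-05 for both, the smallest that 100000 permutations can give, adjusted p = 0.00034 over the 34 genes). Without the 2 mice farthest from the median r was 0.84, and within the 3 slides it was 0.87, 0.97 and 0.90. No other of the 34 genes passed, the next being Elovl6 (r = 0.61, rho = 0.44, permutation p = 0.0058 and 0.064, adjusted p = 0.098 and 0.97). For Elovl6, r was 0.54 without the 2 farthest mice and 0.83, 0.83 and -0.16 within slides. Among the 18 sterol genes r lay between -0.19 and 0.34 over all mice. Within the second slide, with 6 mice, their median r was 0.79, with Sqle at 0.92, Cyp51 at 0.92, Msmo1 at 0.91 and Hmgcs1 at 0.84. Within slides 1 and 3 the median was -0.13 and -0.14, with Sqle at -0.02 and 0.095.

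RefSeq promoter windows (GRCm38.p6, 300 bases across each start, most of them before it) were at hand for 27 of the 34 genes, with 33 windows. They are shown for 3 of the 4 genes whose high-dose lungs all lay below the vehicle lungs after loess. Whether these genes moved together across mice was not tested. Capitals mark matches, on either strand, to TCACNCCAC, a sterol regulatory element type of motif, and to CCAAT, the box bound by NF-Y. These matches did not overlap each other. The windows lie at chr13:119690101-119690400 (plus strand), chr10:76531355-76531654 (plus strand) and chr8:64733529-64733828 (minus strand) and read, 5′ to 3′:
Hmgcs1: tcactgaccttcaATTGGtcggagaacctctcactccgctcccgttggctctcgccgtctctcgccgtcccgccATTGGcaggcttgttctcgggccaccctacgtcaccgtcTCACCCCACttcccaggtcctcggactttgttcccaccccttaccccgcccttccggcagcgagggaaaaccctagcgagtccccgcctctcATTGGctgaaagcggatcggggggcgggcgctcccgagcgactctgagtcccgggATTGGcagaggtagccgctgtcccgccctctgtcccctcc
Lss: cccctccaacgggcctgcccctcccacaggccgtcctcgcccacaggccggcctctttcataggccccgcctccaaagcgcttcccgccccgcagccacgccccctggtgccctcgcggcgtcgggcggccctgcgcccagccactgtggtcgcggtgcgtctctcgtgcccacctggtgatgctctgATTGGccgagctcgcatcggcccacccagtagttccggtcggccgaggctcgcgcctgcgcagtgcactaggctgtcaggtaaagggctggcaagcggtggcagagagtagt
Msmo1: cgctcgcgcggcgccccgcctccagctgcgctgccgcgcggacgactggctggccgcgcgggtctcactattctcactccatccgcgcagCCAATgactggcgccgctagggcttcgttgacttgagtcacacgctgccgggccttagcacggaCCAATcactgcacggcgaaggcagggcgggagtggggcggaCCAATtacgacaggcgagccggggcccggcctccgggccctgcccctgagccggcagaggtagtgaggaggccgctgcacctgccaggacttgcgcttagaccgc
Sqle is the fourth gene.

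Hmgcs1 held 1 match to TCACNCCAC and 4 to CCAAT, Lss held 1 and Msmo1 3 matches to CCAAT. TCACNCCAC occurred in 3.03% of the members' windows, that of Hmgcs1 alone, and in 1.24% of all 32851 windows. CCAAT occurred in 72.7% of the members' windows and in 37.4% of all, and the Sp1 box GGGCGG in 66.7% and 35.7%. The E-box CACGTG was found in 15.2% and 7.15%, and GCGTG, the core of the xenobiotic response element, in 48.5% and 32.4%. A match is a stretch of letters and not a measured binding site.

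In liver, no member was a DEG at any dose or by the trend in limma's test with the slide as a term, against 0.32% of all genes at the high dose, 0.143% at the medium dose, 0% at the low dose and 0.363% by the trend. At an unadjusted p under 0.05, 4 of the 34 genes were higher and 4 were lower at the high dose (6.78% and 5.99% of all genes). The corresponding shrunken-variance F test gave 5 higher and 4 lower. The 4 higher genes all belonged to fatty acid synthesis: Acaca, Acacb, Elovl5 and Scd2, the last well above background in 14 of 20 livers. Lower were Ebp, Acat2 and Dhcr7 of the sterol pathway and Srebf1.

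Acaca and Acacb encode the acetyl-CoA carboxylases, which make malonyl-CoA for synthesis and for the control of fatty acid oxidation. After removal of the slide effect, Acaca was at 1.10, 0.56, 0.87, 1.03 and 1.20 in vehicle livers and at 1.28, 1.69, 1.70, 1.21 and 1.36 at the high dose. No high-dose mouse overlapped with the vehicle mice for this gene, and 2.2% of all genes had their high-dose livers all above vehicle. The change was 0.50 ± 0.15 (adjusted p = 0.14), and it was 0.65 within the first slide and 0.23 within the third, the only slides with high-dose mice. Acacb was higher by 0.52 ± 0.17 (adjusted p = 0.19), and 4 of 5 high-dose mice exceeded every vehicle mouse. Its raw values show what the slide term removes, since the vehicle mice on the first and second slides were at 3.71, 3.60, 3.10 and 3.44 and the vehicle mouse on the third slide was at 1.59. Without a slide term the change of Acacb was -0.19 (adjusted p = 0.92).

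Of the 11 fatty acid genes, 10 were higher in high-dose liver, with a median of 0.39 against 0.00 for all genes, and Me1 was lower (-0.27). Leaving out 1 mouse at a time gave medians between 0.20 and 0.54, whereas the fit with no slide term gave -0.14. The slide-adjusted mean of these 11 genes per mouse was 1.80 ± 0.12 (SD, n = 5) in vehicle and 2.09 ± 0.30 in high-dose livers, with mouse 17 the highest of 20 for 6 of them. Scd2 in that mouse was at -2.85 against -4.69 to -3.87 in the other high-dose mice, all after removal of the slide effect. The sterol genes had a median of -0.08, 13 of 18 being lower, and the 4 hepatocyte markers were all lower as well, with a median of -0.19.

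Among the sterol genes in liver, Ebp, the sterol isomerase, was at 3.66 to 4.02 in vehicle and at 3.09 to 3.64 in high-dose mice, so that all high-dose mice lay below (2.15% of all genes). It changed by -0.30 ± 0.11 (adjusted p = 0.23). Acat2 changed by -0.25 ± 0.11 (adjusted p = 0.34). For Srebf1 the change was -0.36 ± 0.13 (adjusted p = 0.25), but it was well above background in 12 of 20 livers, and the difference was -0.70 within the first slide and 0.10 within the third. Without the third slide the trend of Srebf1 was a DEG. Fdft1 and Stard4 each had 2 probes that differed in direction.

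**Figure D3:**
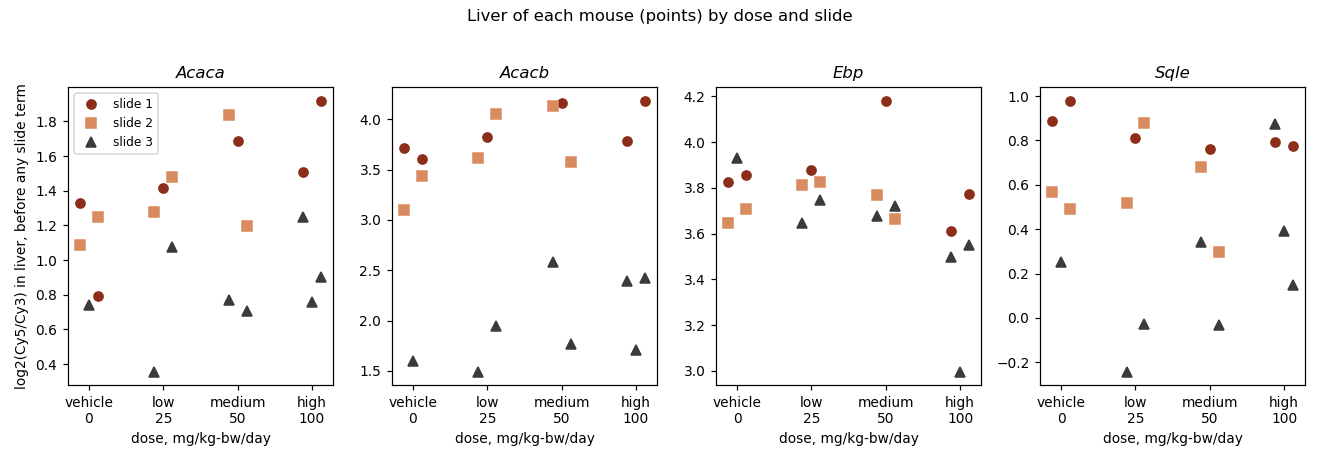
Level of Acaca, Acacb, Ebp and Sqle in the liver of each mouse (points, log2 of tissue over reference RNA before any slide term) by dose of BbF in mg/kg-bw/day, with a symbol per slide. Arrays of slide 3 lie lowest for Acacb in every dose group, and slide 2 holds no high-dose mouse.

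In forestomach, no member was a DEG at any dose or by the trend in limma's test, against 0.0996% of all genes at the high dose, 0% at the low and medium doses and 0.0861% by the trend. At the high dose 28 of the 34 genes were lower (50.3% of all genes), with a median of -0.25 against 0.00 for all genes. At an unadjusted p under 0.05, 6 were lower and 0 higher (4.17% and 4.79% of all genes), and the shrunken-variance F test gave 5 lower and 0 higher. With median centring 15 of the 34 genes were lower, with a median of 0.04, and the genes of like brightness had a median of 0.30.

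Idi1, which isomerizes the isoprenoid unit, had the smallest unadjusted p, at 1.21, 1.76, 1.41, 1.31 and 1.03 in vehicle and 0.94, 0.86, 0.72, 0.67 and 1.28 in high-dose forestomachs. Of these high-dose mice 4 were below all vehicle mice, and the change was -0.45 ± 0.16 (adjusted p = 0.38). Elovl6 lay at 3.12 to 4.04 in vehicle and 2.53 to 3.24 in high-dose mice (-0.75 ± 0.31, adjusted p = 0.50). Me1 (-0.22 ± 0.08), Stard4, a carrier of cholesterol between membranes (-0.27 ± 0.10), and Fdft1, squalene synthase (-0.24 ± 0.11), were each lower after loess with adjusted p of 0.42, 0.43 and 0.53, and slightly higher under median centring (0.12, 0.02 and 0.05). The other probes of Me1 were at -0.17 and -0.43 after loess (adjusted p = 0.75 and 0.13). The second probe of Fdft1 was higher by 0.17, and Acacb and Hsd17b7 also had probes of both directions.

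Single mice stood out in forestomach. Vehicle mouse 2 had the highest value of the 20 mice for 8 of the 18 sterol genes, with a mean over them of 1.64 against 0.95 to 1.26 in the other vehicle mice, and its Sqle was at 1.40 against 0.26 to 0.75 in the other vehicle mice. Without mouse 2 the change at the high dose was -0.35 for Idi1 and -0.16 for Fdft1. The mean of the sterol genes was 1.22 ± 0.26 (SD, n = 5) in vehicle and 1.00 ± 0.14 in high-dose mice. The mean of mouse 2 over the sterol genes was also the highest of all lungs (-0.24), followed by vehicle mouse 3 (-0.30). In liver, after removal of the slide effect, its mean was 2.525, close to that of vehicle mouse 5 (2.498). Dosed mice 9, 12 and 18 were higher in liver (2.534, 2.540 and 2.650), so mouse 2 did not stand out there.

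Adipocyte markers separated the forestomachs into 6 mice (vehicle 3 and 5, low 8, medium 12 and 15, high 20), with a marker mean between 2.09 and 4.58, and 14 mice between -0.05 and 0.96. Thrsp was at 3.23 to 4.99 in the 6 and at 0.36 to 1.42 in the 14, and Scd1 was at 0.75 to 2.92 and -1.13 to 0.01. Fasn, fatty acid synthase, was at 0.80 to 2.47 and 0.37 to 0.76. These 3 were the only ones of the 34 genes whose values in the 6 all lay above those in the 14, which held for 0.259% of all genes. The 6 included 2 vehicle mice and 1 high-dose mouse. At the high dose Thrsp changed by -1.37 ± 1.01, Scd1 by -1.18 ± 0.66 and Fasn by -0.56 ± 0.28. The marker mean ranged from -0.04 to 4.58 in vehicle mice (median 0.71), with vehicle mice 3 and 5 at 3.72 and 4.58. In high-dose mice it ranged from 0.33 to 2.09 (median 0.49). With the marker mean as a covariate, a choice made after the data were seen, 0 members were DEGs at the high dose, and 56 of all genes were. The part of the marker mean in the size of these 3 changes was not tested. Without the 6 arrays, a choice made after the data were seen, 0 members were DEGs at any dose, and the sterol genes had a median of -0.38 at the high dose.

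**Figure D4:**
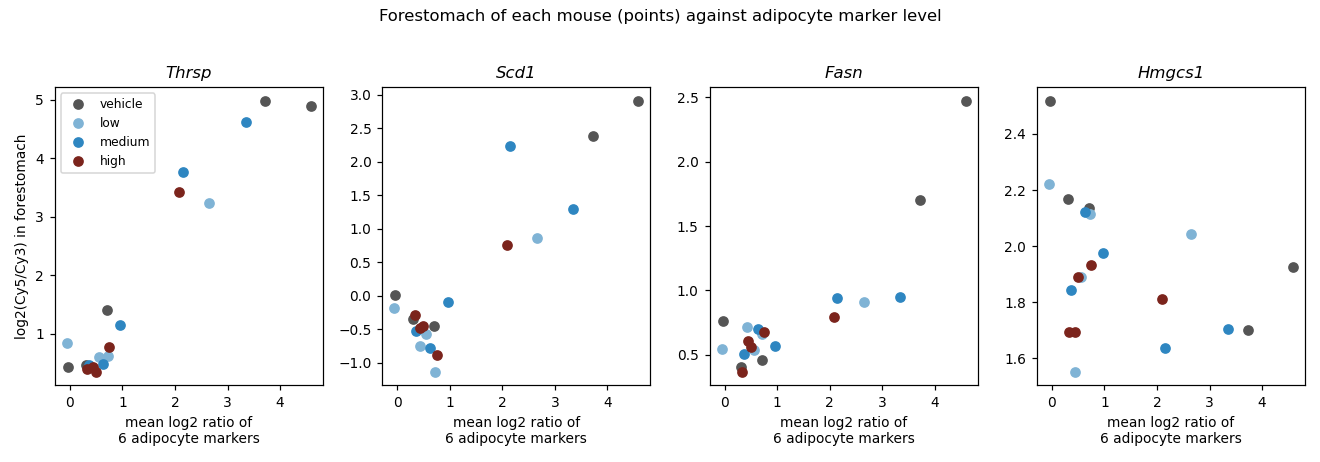
Level of Thrsp, Scd1, Fasn and Hmgcs1 in the forestomach of each mouse (y axis, log2 of tissue over reference RNA) against the mean log2 ratio of 6 adipocyte markers in the same array (x axis), coloured by dose group. The 6 mice with a marker mean above 2 are the highest for Thrsp, Scd1 and Fasn but not for Hmgcs1.

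The effects of the high dose were then set against each other between tissues. Sqle was the only member with a called difference between lung and liver (1.39% of all genes), changing by -0.72 in lung and 0.13 in liver, a difference of -0.85 ± 0.21 (95% interval -1.27 to -0.43, adjusted p = 0.023). The call was lost when the third liver slide was left out (-0.63, adjusted p = 0.21), with no slide term in liver (-0.68, adjusted p = 0.37), with median centring (-0.26, adjusted p = 0.62) and without mouse 3 or mouse 19. For Acaca, lower in lung (-0.24) and higher in liver (0.50), the difference was -0.74 ± 0.21 (adjusted p = 0.056). That of Msmo1 was -0.54 ± 0.19 (adjusted p = 0.16).

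No member differed between lung and forestomach or between liver and forestomach in limma's test (0.92% and 0.0753% of all genes), with 1 and 6 members at an unadjusted p under 0.05 (11.6% and 7.89% of all genes). Me1 came closest between lung and forestomach, higher by 0.33 in lung and lower by -0.22 in forestomach (difference 0.56 ± 0.15, adjusted p = 0.067), and it was called without mouse 1. For Sqle the lung effect differed from that in forestomach by -0.34, with an interval of -0.82 to 0.15. Between liver and forestomach the smallest p-values were those of Acaca (0.84 ± 0.28, adjusted p = 0.39), Elovl6 (1.13 ± 0.43, adjusted p = 0.47) and Srebf1 (-0.42 ± 0.17, adjusted p = 0.50). The remaining ones between lung and forestomach were Srebf2 (-0.30 ± 0.17) and Fasn (0.60 ± 0.36).

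**Figure D5:**
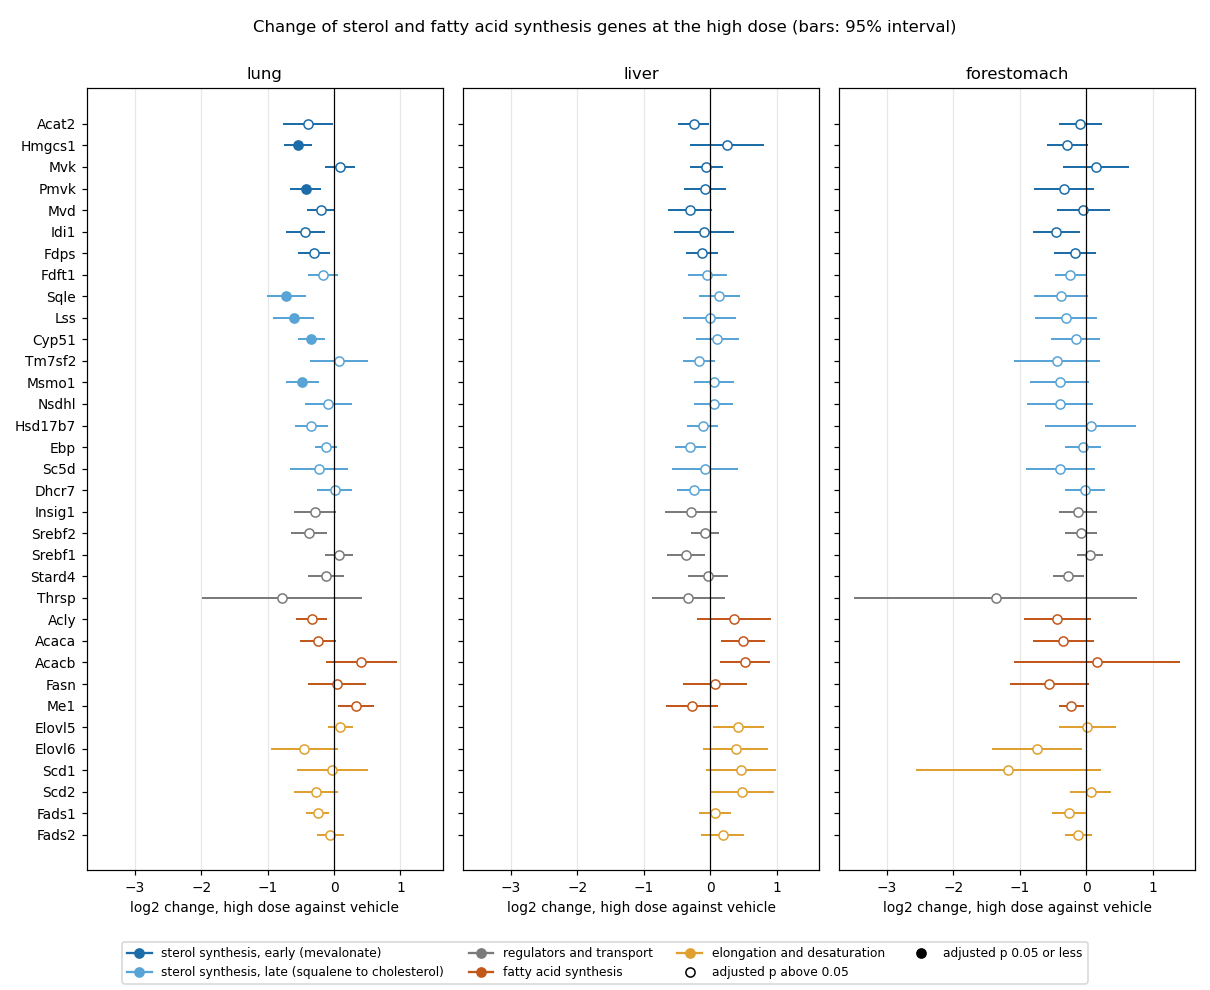
High dose minus vehicle for each of the 34 genes (x axis, log2 scale, loess-normalized) in lung, liver and forestomach, with 1 row per gene, 95% intervals as bars, colours for the role of the gene and filled points for an adjusted p of 0.05 or less. All 6 filled points are sterol genes in lung, and the wide bars in forestomach belong to Thrsp, Scd1 and Acacb.

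Another 26 genes of the same pathways, outside the set, were read for context. In lung at the high dose, after loess, 1 of them was a DEG and upregulated, 0 were downregulated, and the median change was -0.03. Over all genes 1.76% were DEGs in this comparison, and 1.25% were upregulated ones. The DEG was Abca1, which exports cholesterol from cells, at 1.11 to 1.75 in vehicle mice and 2.03 to 2.43 at the high dose, all above vehicle (0.79 ± 0.13, adjusted p = 0.00057). Of all genes, 4.26% had their high-dose lungs all above vehicle. In forestomach none of the 26 was a DEG in limma's test at the high dose (0.0996% of all genes). At an unadjusted p under 0.05, 2 were higher and 3 lower (4.79% and 4.17% of all genes).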

How the data were processed

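The scanner files deposited by the authors hold, per the file headers, spot intensity and local background in Cy5 and Cy3 on Agilent arrays, read with Feature Extraction 10.7.3.1, before any correction or normalization. A table of log2 ratios that the authors processed from these arrays was deposited too, its centring unstated (r between 0.967 and 0.999 with the values used here). No dyes were swapped, and 0 value columns were left unmatched to a sample.

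As in the study, median intensities with no background correction gave log2(Cy5/Cy3), normalized by loess within arrays in limma 3.58.1 (R 4.3.3). Control and non-uniform spots were left out, spots of a probe averaged (55681 probes, 484 missing values), and 26413 probes named through RefSeq accessions (GRCm38.p6, for names and promoter windows only; the array design states an older build). A gene is represented by its probe with the highest mean intensity, and members with probes of both directions at the high dose are named.

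Doses were compared with vehicle per tissue by limma's moderated test, 4 dose groups per fit, with the slide as a fixed term in liver. The Benjamini-Hochberg adjustment ran over all probes. DEGs follow the thresholds of the study, adjusted p of 0.05 and 1.5-fold. The trend used dose as a number. Tests are 2-sided. The study's Fs statistic was not at hand, and a test of that type with 100 shuffles of the residuals was an alternative. Vehicle tissues, and high-dose effects, were compared in fits over the tissues, without a mouse term and, as an alternative, with it. The liver slide was a term in the fits of the effects but not in those of the vehicle tissues. The labels give a mouse the same number in all tissues, so numbers pair the arrays (same-mouse deviations between tissues had median r of -0.03 to 0.04 across genes). Different mice of the same dose had median r of -0.008 to 0.004, so the pairing rests on the labels alone. Scripts were tested on simulated data. Correlations used permutation tests in Python.

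Named in full are, per tissue, members called at any dose or by the trend and the 5 with the smallest p at the high dose; between vehicle tissues the 4 largest differences per direction and pair; and for differences of effects those called and the 3 with the smallest p per pair. Members, lists and motifs were chosen with earlier results of these data known. Marker lists for brown adipocytes, hepatocytes, squamous epithelium and leukocytes (1 leukocyte marker without a probe) served as checks, and their genes gave 0 DEGs at the high dose in lung, with median changes of -0.37, -0.02, -0.03 and 0.16 and, at an unadjusted p under 0.05, 1 hepatocyte marker higher. Some results of pathway genes outside the set are not reported here.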

Additional observations from a re-analysis of the deposited data

Results flagged for a closer look

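In groups of 4 or 5 mice, 7 of 90 groups tested, over the named genes, held 1 mouse far from the others by Dixon's test, which flags about 1 group in 20 by chance. In lung these were Acat2 in vehicle mouse 4 (0.25, others -1.03 to -0.67), Hmgcs1 in low-dose mouse 8 (0.64, others 0.36 to 0.40), Hmgcs1 in high-dose mouse 17 (0.090, others 0.23 to 0.27) and Pmvk in high-dose mouse 18 (-0.28, others -0.37 to -0.35). In liver, after removal of the slide effect, Elovl5 stood apart in vehicle mouse 5 (3.66, others 3.29 to 3.30) and Thrsp in vehicle mouse 3 (4.92, others 5.36 to 5.54). In forestomach it was Srebf2 in vehicle mouse 2 (0.62, others 0.08 to 0.23). Vehicle mouse 5 was the only one of its group on the third liver slide.

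The high-dose effect on Sqle differed between lung and liver by -0.85 ± 0.21 (limma, adjusted p = 0.023), with the losses of this call given above.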

How the results depend on the processing

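Median centring in place of loess gave 0 members called at the medium dose and 2 by the trend in lung (Acacb and Me1, both upregulated, as were the 2 called at the high dose), 2 for the effect of lung minus liver (Ebp and Me1), and 18, 5 and 9 between vehicle tissues. It turned Hmgcs1 (0.0021), Msmo1 (0.062) and Pmvk (0.076) in high-dose lung, Me1 (0.12), Stard4 (0.024) and Fdft1 (0.051) in high-dose forestomach, and the lung-liver difference of Msmo1 (0.074). With the processed values of the authors 0 members were called at the medium dose and 2 by the trend in lung (Lss and Sqle), and 2 for lung minus liver (Acaca and Sqle). A slide term in lung gave 0 at the medium dose and 1 (Sqle) at the high one, where 679 of all genes were called. With no slide term in liver the change of Acacb was -0.19 and 0 members were called for lung minus liver. Without the third liver slide, 1 member was called by the hepatic trend (Srebf1) and 0 for lung minus liver, and within that slide Srebf1 was at 0.10 at the high dose. The adipocyte covariate, added after the data were seen, gave 0 at the medium dose in lung. For each of these, the cause was not tested. Except where a number for all genes is given, these counts are not set against the genes called in the same fit.

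When 1 mouse was left out at a time, the members called ranged from 0 to 2 at the medium dose, 1 to 3 at the high dose and 1 to 2 by the trend in lung, 0 to 2 for the effect of lung minus liver and 0 to 1 for lung minus forestomach. Between vehicle tissues they ranged from 30 to 33, 22 to 24 and 25 to 29, and in liver and forestomach they stayed at 0. The numbers of all genes called in these fits are not given. The ranges thus show how stable the calls were and no excess over all genes.

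With the mouse as a replicate block in the fits over tissues, the members called were 1, 0 and 0 for the effects and 31, 23 and 29 between vehicle tissues, the same counts as without it, and the block changed no other call. Over all genes, high-dose DEGs in lung, liver and forestomach numbered 653, 119 and 37, against 3114, 17 and 138 with median centring and 708, 187 and 22 by the shrunken-variance F test. In liver they numbered 2 with no slide term and 297 without the third slide, and in forestomach 8 without the 6 arrays rich in adipocyte markers. Few probes above background on the third liver slide limit the hepatic values. Srebf1, Srebf2 and Mvd were well above background in 12 of 20 livers. Fads2 was so in 13, Scd2 and Insig1 in 14, Cyp51 in 15, Hsd17b7 in 16, Lss in 17 and Fasn in 18.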
